A study of Mus musculus with 3 samples.

Results

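The elastic fibre genes are 10 genes that encode elastin, the microfibrils it is laid down on, the fibulins that join the parts, and the lysyl oxidases that cross-link them. They were taken as listed (Eln, Fbn1, Fbn2, Fbln1, Fbln2, Fbln5, Efemp2, Lox, Loxl1 and Loxl2), out of 21883 protein-coding genes of the RefSeq table on chromosomes 1 to 19, X and Y, and each was found there by its symbol. ChIP-seq located the binding of FOXF1, a forkhead transcription factor made by lung mesenchyme and endothelium, in the whole lungs of C57BL/6 mouse embryos, all wild-type and at embryonic day 18.5, close to birth. There were 2 biological replicates, each a pool of 3 lungs, and the authors called the peaks of each against a 2% input of the same stage. The series has this single condition, so the results describe where the sites lie and how the replicates compare, and no contrast between groups was possible. The lists hold no RNA values, so the tissue label could not be checked against marker genes.

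Elastic fibres let the lung recoil after each breath. Elastin is secreted as soluble tropoelastin, gathered by fibulins onto a scaffold of fibrillin microfibrils, and made insoluble by copper-dependent lysyl oxidases. In the lung the fibres are made mainly by fibroblasts, smooth muscle and endothelial cells, and they mark the tips of the septa that divide the air spaces around and after birth.

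Each deposited entry is a summit, the single base at the top of a peak, scored by the authors with its −log10 significance. There were 107388 summits in replicate 1 and 61178 in replicate 2. The highest scores were 354.5 and 231.9, and the lowest 2.04 and 2.02. The score depends on sequencing depth, which the sources used here do not give, so the highest sites are also given by the percentile of their score within its own list. In whole lung a score cannot tell few strongly bound cells from many weakly bound ones. Summits of both replicates that were mutual nearest and at most 100 bp apart made a shared site, and there were 51013 of these. A site belonged to a gene when it lay inside it, or within 100 kb of it with an end of that gene as the nearest end of any protein-coding gene. Positions are on mm10 and are counted from 1, and the ends of a gene are called left and right along the forward strand.

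Every one of the 10 genes had a shared FOXF1 site. By the same rule 60.7% of all protein-coding genes had one. The genes held 56 sites in all, of which 45 (80.4%) lay inside the gene and 11 outside, and all 10 had a site inside, against 48.1% of all protein-coding genes. Fbn1, Fbn2, Fbln1 and Fbln5 had 5 or more inside, against 7.08% of all protein-coding genes. They are 205.9, 201.95, 80.3 and 72.6 kb long, while that share is over genes of all lengths. Exons and introns could not be told apart, since the table gives only the ends of a gene. No site belonged to a further protein-coding gene. The median was 4.5 sites per gene, against 1 over all protein-coding genes. The elastic fibre genes also have more ground on which a site can count: the gene and its flanks spanned a median of 112.2 kb, against 49.6 kb over all protein-coding genes. Per 100 kb of this ground the median was 3.58 sites against 1.55. Counted over every summit of a list, paired or not, the 10 genes had 112 in replicate 1 and 65 in replicate 2. The list of replicate 1 alone gave over 1.5 times the shared count at Eln (15), Fbn1 (42), Fbn2 (16), Fbln2 (7), Fbln5 (11), Lox (3) and Loxl1 (4).

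**Figure D1:**
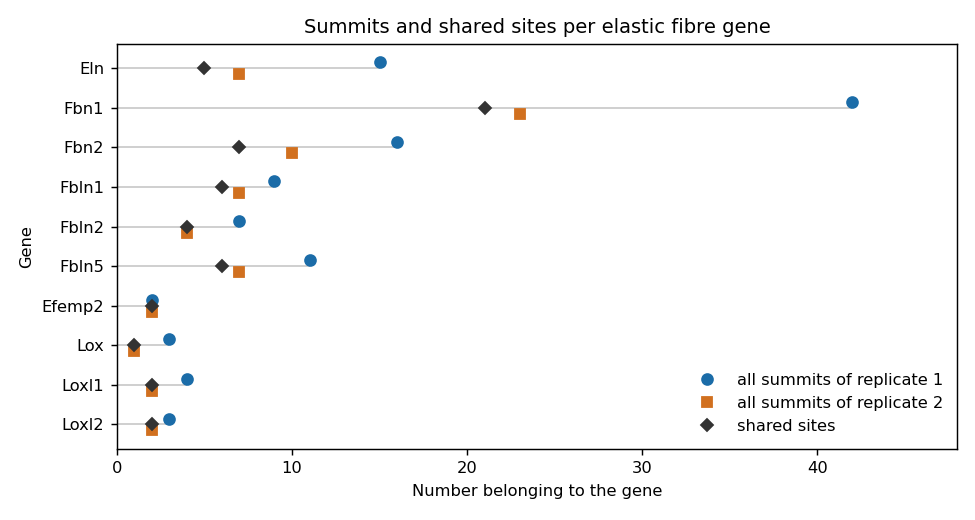
Number of summits of replicate 1 (circles), of replicate 2 (squares) and of shared sites (diamonds) that belong to each gene, with the genes listed on the vertical axis. Fbn1 stands far to the right with 42, 23 and 21, while Lox, at the low end, has 3, 1 and 1.

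The starts of the genes can be shown for those with a window in the RefSeq promoter table (GRCm38.p6, the assembly behind mm10). That table runs from 250 bases before to 50 after an annotated transcription start and held 9 windows for 5 of the genes, namely Fbn1, Fbln1, Fbln2, Fbln5 and Efemp2. No window was found for Eln, Fbn2, Lox, Loxl1 and Loxl2. The sequence ahead of the gene is printed for Efemp2, Fbn1 and Fbln1, which had a shared site at the start, and for Fbln5, where the summits of both replicates lay at the start but too far apart to pair. Each runs 5′ to 3′ on the strand of the gene and stops before the annotated gene. Capitals mark GGGCGG or its reverse complement, the core of GC boxes bound by SP and KLF factors.
Efemp2 (chr19:5473696-5473945, forward strand): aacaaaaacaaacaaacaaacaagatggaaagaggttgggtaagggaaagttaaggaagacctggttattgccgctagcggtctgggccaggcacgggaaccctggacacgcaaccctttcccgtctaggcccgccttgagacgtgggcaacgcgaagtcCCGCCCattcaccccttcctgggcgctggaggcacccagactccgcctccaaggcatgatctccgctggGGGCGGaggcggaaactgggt
Fbn1 (chr2:125506486-125506688, reverse strand): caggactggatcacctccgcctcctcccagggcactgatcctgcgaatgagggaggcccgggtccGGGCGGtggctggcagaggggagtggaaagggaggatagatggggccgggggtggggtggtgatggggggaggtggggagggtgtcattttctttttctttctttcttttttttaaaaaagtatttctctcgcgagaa
Fbln1 (chr15:85205699-85205948, forward strand): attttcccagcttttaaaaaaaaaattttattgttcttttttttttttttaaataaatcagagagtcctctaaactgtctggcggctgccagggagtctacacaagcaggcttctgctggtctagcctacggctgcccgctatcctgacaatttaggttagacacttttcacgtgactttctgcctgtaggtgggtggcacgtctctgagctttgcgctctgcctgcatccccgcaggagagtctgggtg
Fbln5 (chr12:101819120-101819369, reverse strand): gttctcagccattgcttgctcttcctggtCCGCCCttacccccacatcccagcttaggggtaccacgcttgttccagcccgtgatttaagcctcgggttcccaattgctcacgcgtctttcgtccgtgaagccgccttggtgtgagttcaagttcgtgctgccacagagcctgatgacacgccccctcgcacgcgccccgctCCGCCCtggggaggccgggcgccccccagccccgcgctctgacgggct

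The shared site of Efemp2 lay 35 bp after the first start, inside its window, and a further one at 5474713 lay between the other annotated starts, 23 bp after one and 22 bp before the next. That of Fbn1 lay 50 bp after the start, just past the edge of the window, and that of Fbln1 lay 130 bp after the first start and 71 bp after the next. A forkhead core, searched as TGTTTAC or TATTTAC on both strands, was in 0 of the 9 windows, against 6.54% of all 32851 windows of the table. The GGGCGG letters were in 7 of the 9 windows and in at least 1 window of each of the 5 genes, against 35.7% of all windows. The 7 windows with these letters had a GC content of 60.3% to 78.3%, against a median of 52.7% over all windows, and its part in the count was not tested. The printed stretch of Efemp2 holds 2 such matches, that of Fbn1 holds 1, that of Fbln1 none and that of Fbln5 holds 2. AP-1 letters (TGANTCA), TEAD letters (GGAATG) and TATA box letters (TATAAA), each on both strands, were in none of the 9 windows, against 7.81%, 14.7% and 13.6% of all windows. Windows of the same gene overlap at Fbln1 and Efemp2 and share sequence, and letters present in or missing from a window say nothing of the binding of a factor. The sequence under the sites away from the starts was not analysed here.

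Eln, which encodes tropoelastin, spans 134702595 to 134747368 on chromosome 5 and had 5 shared sites, all at or beyond its right end. Inside the gene replicate 2 had 1 summit, at that end, and replicate 1 had 7. The highest of those without a partner in replicate 2 lay at 134734299 and scored 24.6. The highest shared site lay 7014 bp outside that end, at 134754382, scoring 163 in replicate 1 (percentile 98.2 of its list) and 54.8 in replicate 2 (percentile 89.5). It was the highest site of all 10 genes in replicate 1. The only site inside the gene lay at 134747230, 138 bp from the right end, with scores of 45.0 and 32.0. Farther out, sites 24160 and 51498 bp from the end had 43.1 and 17.6, and 23.7 and 6.63. All 5 sites lay within the annotated span of the long noncoding RNA gene Gm30003, which overlaps the right end of Eln. With 3.90 sites per 100 kb, Eln was above 70.4% of protein-coding genes in density.

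**Figure D2:**
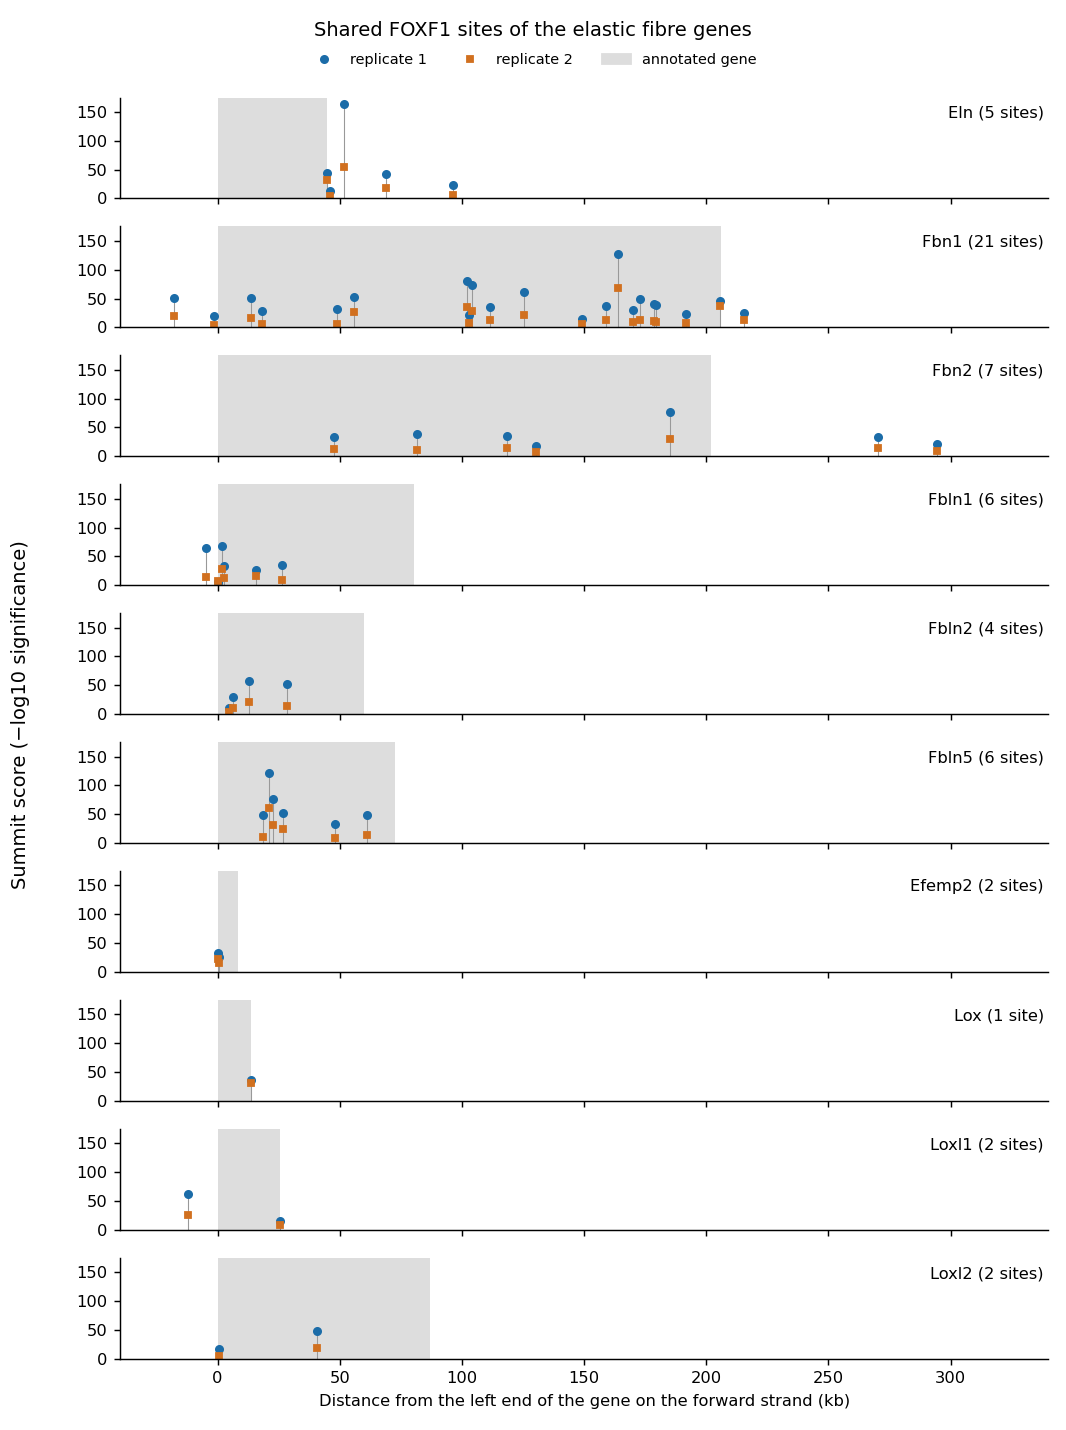
Shared FOXF1 sites of each gene by distance from the left end of the gene in kb (horizontal axis), with the score in replicate 1 (circles) and replicate 2 (squares) on the vertical axis and the annotated gene in grey. The Eln sites lie at and beyond its right end, those of Fbn1 run through the whole gene, and Fbn2, of nearly the same length, holds fewer.

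The fibrillins form the microfibrils. Fbn1 encodes fibrillin-1, the main microfibril protein at all ages, and Fbn2 encodes fibrillin-2, which is made mostly before birth. The genes are nearly equal in length, 205.9 kb for Fbn1 and 201.95 kb for Fbn2, but Fbn1 held 18 shared sites inside the gene and Fbn2 held 5. This is 8.74 against 2.48 sites per 100 kb of gene. Each list alone gave the same order, with 38 summits inside Fbn1 and 12 inside Fbn2 in replicate 1, and 20 and 5 in replicate 2. Both genes lie in 1 condition with 2 replicates, so no test of this difference was made.

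Fbn1 spans 125300594 to 125506485 on chromosome 2 and had 21 sites with its flanks, 37.5% of the sites of all 10 genes. Only 1.12% of protein-coding genes had 20 or more. In density, with 8.46 sites per 100 kb, Fbn1 was above 89.4% of them. Among the 1419 other protein-coding genes with ground within 20% of that of Fbn1 in length, the median was 3 sites and 96.5% had fewer than Fbn1. The sites inside Fbn1 were spread along the gene, a median of 7141 bp apart, with the widest gap at 46093 bp. The highest, at 125464638, lay 41847 bp inside the right end, where the gene starts, with scores of 127 and 68.6, the 96.0 and 94.3 percentiles. Next came sites deep in the gene at 125402532, with 80.3 and 34.6, and at 125404855, with 73.0 and 29.1. The site at the start of the gene, at 125506388, had 46.0 and 37.3. The lowest of the 21 in replicate 1 had 14.1 and the lowest in replicate 2 had 4.32, so sites of very different height were counted alike.

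Fbn2 spans 58008623 to 58210572 on chromosome 18. It had 7 shared sites, and with 2.10 per 100 kb its density was above 55.4% of protein-coding genes. Of 624 other genes with ground of similar size, 50.3% had fewer sites, and the median was 6. The highest site, at 58193763, lay 16809 bp inside the right end, with scores of 77.0 and 29.4. The next, at 58127070, had 35.9 and 14.9. The shared sites outside the gene lay 68450 and 92489 bp beyond the right end, the latter close to the 100 kb limit, with 33.1 and 14.1, and 21.4 and 8.96. No shared site with an end of Fbn2 as its nearest lay between 100 kb and 150 kb away. At the remaining genes none could, since the end of a neighbouring gene became nearer within 100 kb.

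Fibulins bind elastin and fibrillin. Fbln5 and Efemp2 encode fibulin-5 and fibulin-4, which are needed for elastic fibre assembly, and Fbln1 and Fbln2 encode fibulins of fibres and basement membranes. The 4 genes held 18 sites, all but the leftmost site of Fbln1 inside the gene. Fbln5, at 101746565 to 101819119 on chromosome 12, had 6 sites, all inside, or 6.39 per 100 kb, above 83.3% of protein-coding genes. A run of 4 sites lay 18518 to 26719 bp inside the left end, the side away from the start. Among them the site at 101767758 had scores of 121 and 61.4, the 95.5 and 92.2 percentiles, and the one at 101769086 had 77.0 and 32.0. Nearest to the start was a shared site at 101807536, 11583 bp inside the right end, with 47.9 and 14.8.

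Fbln1 (85205949 to 85286294 on chromosome 15) had its 6 sites around the left end, where it starts, and none beyond 26186 bp into the gene. The highest lay 1975 bp inside, at 85207924, with scores of 68.3 and 28.6. Another lay 4769 bp outside the gene at 85201180, with 64.8 and 13.9, which are percentiles 84.6 and 40.3. The site nearest the start, at 85206079, was among the lowest in both lists, with 6.31 and 6.54. Fbln2 (91212460 to 91272540 on chromosome 6) had 4 sites, all within 28249 bp of the left end, where it starts. The highest, at 91225169, had 56.9 and 21.4, and the next, at 91240709, had 51.8 and 14.9. The site nearest to the start, 4566 bp inside the left end at 91217026, had only 11.4 and 4.60.

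Efemp2 (5473946 to 5482520 on chromosome 19) is short and has close neighbours, and its ground was only 11.3 kb. Its 2 sites, both near the starts of the gene, made 17.8 per 100 kb, above 97.9% of protein-coding genes. Still, 2 sites or more were held by 35.5% of them. Among 1299 other genes with ground of similar size, 90.7% had fewer sites. Scores were 32.2 and 23.0 at 5473981, and 25.4 and 15.5 at 5474713. Its paired summits lay 42 and 93 bp apart, and with a limit of 50 bp only the former site remained.

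The lysyl oxidases had few sites beside most of the other listed genes, with 1 or 2 each, against a median of 1 over all protein-coding genes. Lox, which cross-links both elastin and collagen, had 1 shared site, inside its right end (gene at 52516060 to 52529867 on chromosome 18). This site, at 52529618, lay 249 bp from the end and had scores of 36.2 and 31.1, the 68.7 and 71.4 percentiles. Loxl1, whose product keeps elastic fibres renewed in the adult, spans 58287723 to 58313212 on chromosome 9 and had 2 sites. One lay 12265 bp beyond its left end at 58275458, with 62.0 and 25.3, and the other lay 51 bp inside its right end at 58313161, with 16.2 and 7.78. Loxl2, which also cross-links collagen IV, spans 69608692 to 69695834 on chromosome 14 and had 2 sites. The higher was deep inside the gene, at 69649497, with 48.9 and 19.1, and the lower, 493 bp inside the left end at 69609185, had 16.9 and 5.60 and lay within the long noncoding RNA gene Gm27177 as well. In density Lox was above 49.0%, Loxl1 above 65.6% and Loxl2 above 54.3% of protein-coding genes, close to the middle of the distribution.

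Most of the genes had a site at the very end. It was the highest site of the gene only at Efemp2 and at Lox, which had no other shared site. A shared site lay within 5 kb of an end at 8 of the 10 genes, against 54.3% of protein-coding genes, and within 500 bp at 7 (Eln, Fbn1, Fbln1, Efemp2, Lox, Loxl1 and Loxl2), against 36.5%. Where both scores had to reach 10, the count within 5 kb was 5 of the 10, against 49.8% of protein-coding genes. The sites within 500 bp at Fbln1, Loxl1 and Loxl2 fell below 10 in replicate 2, with 6.54, 7.78 and 5.60. The distance of 500 bp was chosen after the sites had been seen. At the right ends of Fbln5 and Fbn2 the replicates had summits that did not pair. For Fbln5 they lay 15 bp from the end in replicate 1, with a score of 21.4, and 248 bp in replicate 2, also with 21.4, 233 bp apart. For Fbn2 they lay 144 bp inside in replicate 1, with 15.3, and 223 bp outside in replicate 2, with 6.67, 367 bp apart. With these, 9 of the 10 genes had a summit of each replicate within 500 bp of the same end, against 43.2% of protein-coding genes. The exception was Fbln2. In all 4 genes of the 9 with a known start, that end was the start. The count of 9, which drops the pairing, was also added after the sites had been seen.

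At gene ends the replicates also scored more alike than elsewhere. Replicate 1 had the higher score at 55 of the 56 sites, and the exception was the site at the start of Fbln1. Over all shared sites, replicate 2 was the higher at 1.89%. The score of replicate 2 divided by that of replicate 1 had a median of 0.714 over the 7 sites within 500 bp of a gene end, from 0.331 at Loxl2 to 1.04 at Fbln1. Over the other 49 sites the median was 0.375, from 0.174 to 0.608. The groups overlap through Loxl1 (0.480) and Loxl2. Over the whole lists the same order was seen: the median ratio was 0.705 over all 7398 shared sites within 500 bp of a protein-coding gene end and 0.415 over the other 43615. Of the sites of the elastic fibre genes, 12.5% lay that close to an end, against 14.5% of all shared sites. Most of their sites were of middling height. The median scores were 36.9 and 13.6, below the 44.1 and 19.1 of all shared sites, and 2 of the 56, at Fbn1 and Fbln5, were above the 90th percentile of both lists, against 10.2% of all shared sites. With the lists limited to their 10000 highest summits, 3 of the 10 genes (Eln, Fbn1 and Fbln5) had a shared site, with 1 each, against 16.6% of protein-coding genes.

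**Figure D3:**
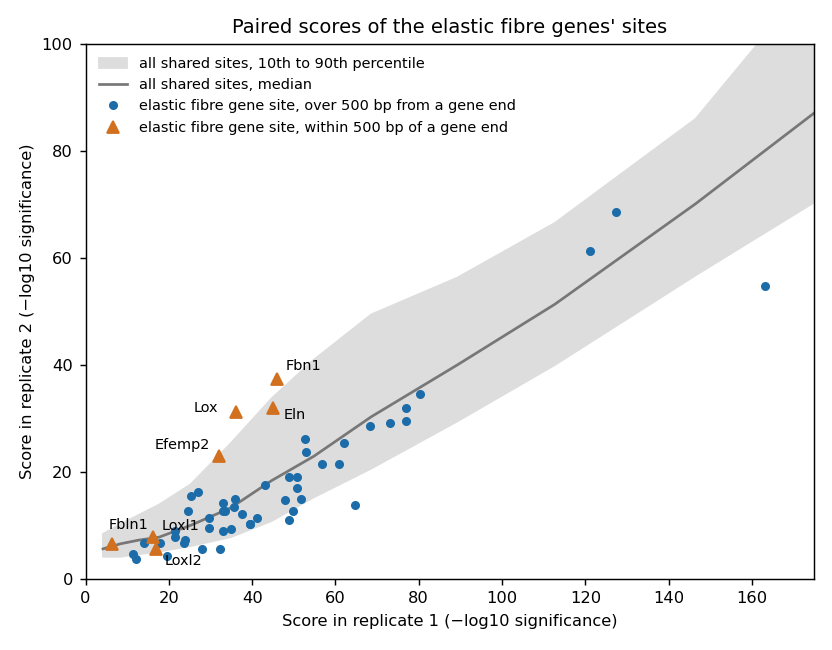
Score in replicate 1 (horizontal axis) and replicate 2 (vertical axis), both −log10 significance, of the 56 shared sites of the elastic fibre genes, within 500 bp of a protein-coding gene end (triangles, named) or farther away (circles). The line and band give the median and the 10th to 90th percentile of replicate 2 over all shared sites of like score in replicate 1, cut off at the top of the axis. Lox, Fbn1, Efemp2 and Eln lie well above the line, while most circles lie on or under it.

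The pairing limit of 100 bp left out some high summits. At Eln, replicate 1 had a summit of score 91.1 at 134797866 and replicate 2 had one of 33.9 at 134797979, 113 bp apart and about 50 kb beyond the right end. At Fbn2, summits of 84.5 at 57989990 and 32.0 at 57990133 lay 143 bp apart, 18633 and 18490 bp outside the left end. In both replicates the Fbn2 summit here was higher than that of any shared site of the gene. At Fbn1 a pair with 34.0 and 19.1 lay 103 bp apart. Just inside the limit, the widest pairs were 97 bp apart at Fbn2, with 33.1 and 12.7, and 96 bp apart at Fbn1, with 29.6 and 9.56. The median distance within a pair was 12.5 bp. Apart from the shared sites, 56 summits of replicate 1 and 9 of replicate 2 belonged to the 10 genes, with median scores of 10.9 and 12.3.

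Other genes of the elastic fibre pathway were listed by role, and 21 of 28 (75%) had a shared site, against the 60.7% of all protein-coding genes. They held 126 sites in all, with a median of 2 per gene and 4.97 per 100 kb. All 4 latent TGF-beta binding protein genes had a site, and so had all 5 ADAMTS family genes and all 3 genes of maturation and copper supply. Of the 3 other fibulin genes 2 had a site, as did both other lysyl oxidase genes and 3 of the 5 genes of microfibril partners. Of the 6 genes for enzymes that cleave elastin, 2 had a site, namely the metalloprotease genes Mmp2 with 3 and Mmp14 with 2. The 7 genes without a shared site by the rule were Mfap5, Emilin2, Efemp1, Mmp9, Mmp12, Ctsk and Ctss. A shared site did lie within 5 kb of an end of Emilin2, but the end of another gene was nearer to it.

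The sites were spread unevenly over these genes. Hmcn1, a giant fibulin of cell and matrix borders, had 30 on 579.3 kb of ground, and Ltbp1, which holds latent TGF-beta in the matrix, had 25 on 479.7 kb. Adamts17 had 16 on 356.2 kb and Thsd4, which promotes microfibril assembly, had 11 on 590.8 kb. Per 100 kb these were 5.18, 5.21, 4.49 and 1.86 sites, above 77.9%, 78.1%, 74.1% and 53.0% of protein-coding genes. By the mean of both scores, the highest site was that of Hmcn1 at 151041218 on chromosome 1, 47566 bp outside its right end, with scores of 244 and 143. A site inside Atp7a at 106045617 on chromosome X followed, with 248 and 128. Atp7a encodes the pump that supplies copper to the lysyl oxidases. Next by that mean were sites inside Adamtsl2, a microfibril-bound regulator of TGF-beta, at 27096506 on chromosome 2 with 224 and 103, and inside Ltbp1 at 75355561 on chromosome 17 with 193 and 114. Each of these 4 scored higher in both lists than any site of Eln, the fibrillins, the fibulins or the lysyl oxidases listed at the outset.

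**Figure D4:**
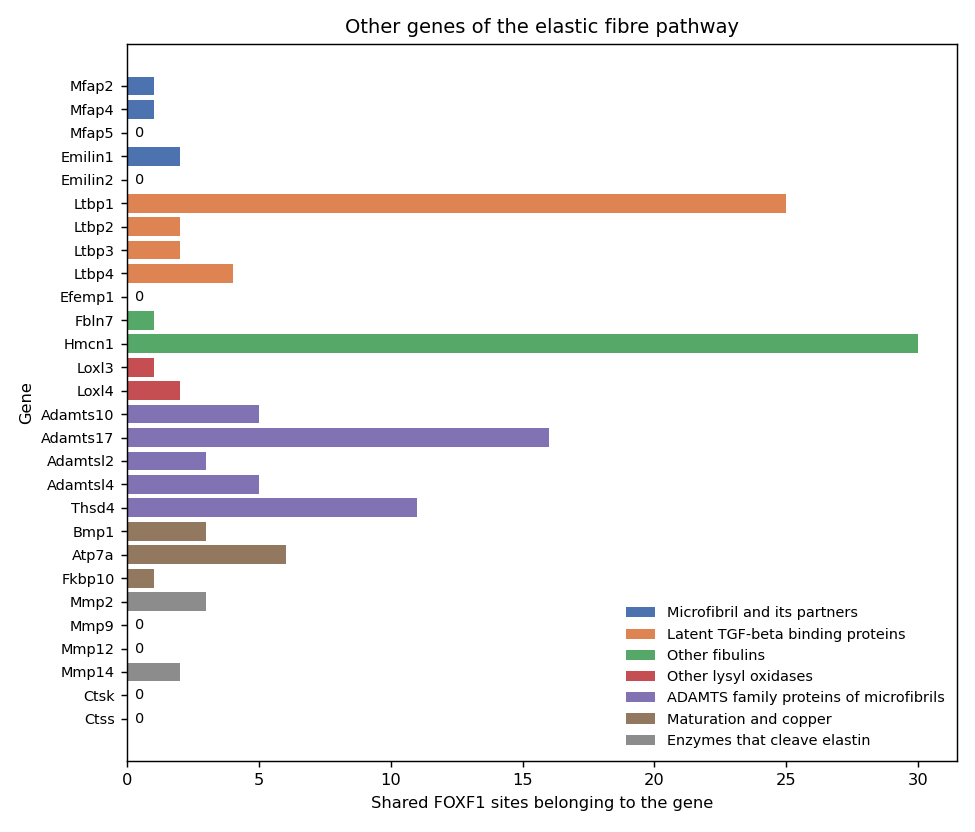
Number of shared FOXF1 sites that belong to each of 28 other genes of the pathway (horizontal bars, from 0), coloured by role. Hmcn1 with 30 and Ltbp1 with 25 hold the most, and 7 genes hold 0.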

How the data were processed

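ChIP used 2 replicates of pooled lungs, fixed in 1% formaldehyde, with 10 µg of chromatin and 7 µg of antibody each, per the labels' protocols. The authors called summits with MACS2 on mm10 (per the submitters' processing notes), separately for each replicate and against the input, per the peak names in the files. The deposited score is the −log10 of a p or q value; which of both, the aligner, the options and the depth are not stated by the labels. Input reads were not analysed here.

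Autosomes, X and Y were kept, with 107378 and 61172 summits. Python 3.11.15, numpy 2.4.6 and pandas 2.3.3 paired summits, assigned them to RefSeq genes (GRCm38.p6, without strand or exons) and searched motifs, and matplotlib 3.10.9 drew the figures. Pairing and assignment were tested on simulated data. The percentile of a score is its rank within its own list, with tied scores given their mean rank. For a gene, the share of protein-coding genes with a lower value is given. Named are all 10 genes, with the highest site, the site nearest the start or an end and the next highest by mean score, and of the other pathway genes the 4 with most sites, the 4 with the highest sites and those without. The genes and lists were chosen with earlier results of these data known. Alternatives were the pairing distance, the score, the reach of a gene, the distance from a gene end, each list alone and the forkhead letters.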

Additional observations from a re-analysis of the deposited data

How the results depend on the processing

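All 10 genes had a site under each alternative except the restriction to the 10000 highest summits per list. Over the other alternatives the share of all protein-coding genes with a site ran from 48.1% (inside only) to 72.4% (replicate 1 alone), while the count of 10 can go no higher. The restriction left 3 of the 10 genes with a site (16.6% of protein-coding genes), 3 sites in all, a median of 0 sites per gene and of 0 per 100 kb, no gene (0, against 7.01% of protein-coding genes) bound within 5 kb of an end, and 9 of the 28 other pathway genes with a site, and 3 genes had the same highest site as before. With scores of at least 10 the median density was 2.37 per 100 kb and a site lay within 5 kb of an end at 5 genes, against 0.994 per 100 kb and 49.8% over all protein-coding genes. With sites inside the genes only, the median density was 6.44 per 100 kb of gene, against 0 over all protein-coding genes. Leaving out a replicate gave 65 to 112 summits over all 10 genes, a median of 5.5 to 8 per gene and of 4.20 to 6.57 per 100 kb, with the higher value always from the list of replicate 1, which is longer. Over all protein-coding genes these medians moved as well, from 1 to 2 per gene and from 2.14 to 3.96 per 100 kb. Within 5 kb of an end all 10 genes had a summit with either list alone, against 67.4% of protein-coding genes for replicate 1 and 60.8% for replicate 2. By the assignment rule, 21 to 24 of the other pathway genes had a summit of a single list, against 65.3% to 72.4% of protein-coding genes. Fbn1 held more sites than Fbn2 under each alternative, by 1 against 0 with the 10000 highest summits. No forkhead core was found in the 9 promoter windows with TGTTTAC alone, nor with TGTTTGC added. For the single genes, 25 of 153 counts and highest scores moved, the counts by over 1.5 times and the scores by over 1 SD of the replicates' scores. Of the other 128, the highest site of Eln differed for sites inside the gene only, where its mean score was 38.5 in place of 109.0. That of Fbn2 differed with pairs up to 200 bp apart, where a site outside the left end had 58.3 in place of 53.2. The summits of that site were also the highest of Fbn2 with either list alone, at 84.5 in replicate 1 and 32.0 in replicate 2. No paired analysis was possible because the results come from no test and the replicates form a single group. The unknown depth limits how far low scores and summits of a single list can be read.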
